A study of Mus musculus with 9 samples.

Results

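The receptors and ligands of platelet-derived growth factor (PDGF) and fibroblast growth factor (FGF) were followed across 3 kinds of mouse mammary culture. They comprised the receptors Pdgfra, Pdgfrb, Fgfr1, Fgfr2 and Fgfr3 and the ligands Pdgfa, Fgf1, Fgf2, Fgf7 and Fgf10. Every probe set that the platform annotation assigns to exactly 1 gene symbol, equal to 1 of these names, was taken. This gave 17 probe sets of 10 genes, of 22626 probe sets and 12393 genes measured. 7 genes had 2 probe sets, and Fgf2, Fgf7 and Fgf10 had 1 each.

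RNA of 3 cultures of each kind was hybridized to MOE430A arrays, 9 arrays in all, named here by their array codes. Tumorspheres (TMS, arrays 1099A, 1100A and 1101A) are free-floating spheres grown from independent mammary tumors of MMTV-Neu [N2O2] mice, in which the MMTV promoter drives Neu mainly in mammary epithelium. Mammospheres (MMS, arrays 858A, 859A and 860A) were grown from the mammary glands of virgin female FVB/N mice 6 to 8 weeks old. Both were grown in stem cell medium, passaged each 7 days, and harvested at passage 3 to 5. For mammospheres induced to differentiate (diffMMS, arrays 861A, 862A and 863A), dissociated mammosphere cells were plated on collagen in serum-containing medium for 7 days, so that medium and attachment changed together. The age and sex of the tumor-bearing mice and the growth factors in each medium are not given in the sources used here. The array codes of MMS and diffMMS follow on from each other and those of TMS stand apart. What the codes mark is not stated in the labels, and if they mark separate processing, it cannot be told apart from culture type in any comparison with TMS.

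PDGF and FGF are secreted factors that bind receptor tyrosine kinases at the cell surface. PDGF-A acts through the alpha receptor, which marks mesenchymal cells and their precursors, and the beta receptor is typical of pericytes and fibroblasts. FGF7 and FGF10 are made mainly by stromal cells and act on the epithelial splice form of FGFR2, a route by which stroma directs the growth of the mammary bud and duct. FGF1 and FGF2 bind several FGF receptors and, like the other paracrine FGFs, need heparan sulfate chains on the cell surface for a stable receptor complex. Both receptor families signal through adaptor proteins to the Ras/MAP kinase and phosphatidylinositol 3-kinase pathways, which in turn raise the transcripts of their own inhibitors, the Sprouty, Spred and dual-specificity phosphatase families.

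Of the 10 genes, 4 were higher in diffMMS than in MMS and 0 were lower. The 4 were the stromal ligands Fgf7 and Fgf10, the receptor they share, Fgfr2, and Pdgfra. Fgfr2 passed with 1 of its 2 probe sets, its splice form was not known, and Fgf10 was dim (24.4th percentile). Fgf7 rose the most, 3.50-fold, and Pdgfra rose 2.06-fold. Of all 12393 genes, 18.0% were called higher and 16.1% lower in the same comparison. The median difference of the 10 genes was 0.17 on the log2 scale, against 0.05 for all genes. TMS and MMS differed in fewer members: Fgfr1 was higher and Pdgfrb lower in TMS, with 6.21% of all genes called higher and 7.11% lower, and the median difference was 0.13 against 0.00 for all genes. Against diffMMS, TMS were lower in Fgf7, Fgf10, Pdgfra, Fgfr2 and Pdgfrb and higher in Pdgfa, with 12.3% of all genes called higher and 12.7% lower. The median difference there was -0.13 against -0.03 for all genes. The 3 comparisons share arrays and are not independent of each other.

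A gene was called where its brightest probe set (by the mean of 9 arrays) had an adjusted p under 0.05 by limma with Benjamini-Hochberg adjustment over all 22626 probe sets. Values are log2 of the deposited intensity plus a pseudocount of 8.67, after quantile normalization, so that fold changes of dim genes are understated. Values are bulk, and fewer cells that express a gene cannot be told apart from less of its RNA per cell.

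The promoters of the 4 genes that were higher in diffMMS are shown because all 4 passed the test in the same direction. Each sequence is the 250 bases before the transcription start, read 5′ to 3′ on the strand of the gene, from RefSeq on the build GRCm38.p6. The windows lie at chr2:126034408-126034657 (plus strand) for Fgf7, chr13:118714449-118714698 (plus strand) for Fgf10, chr7:130266809-130267058 (minus strand) for Fgfr2 and chr5:75152001-75152250 (plus strand) for Pdgfra. Capitals mark matches on either strand. The motif searched for the GC box was GGGCGG. That for the TATA box was TATAAA, that for the CCAAT box was CCAAT, that for AP-1 was TGANTCA and that for TEAD was GGAATG.
Fgf7: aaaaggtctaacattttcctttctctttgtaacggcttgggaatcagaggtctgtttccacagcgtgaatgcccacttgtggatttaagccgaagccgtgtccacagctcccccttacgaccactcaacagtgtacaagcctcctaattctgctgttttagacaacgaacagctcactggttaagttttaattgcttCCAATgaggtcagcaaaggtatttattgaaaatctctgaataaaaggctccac
Fgf10: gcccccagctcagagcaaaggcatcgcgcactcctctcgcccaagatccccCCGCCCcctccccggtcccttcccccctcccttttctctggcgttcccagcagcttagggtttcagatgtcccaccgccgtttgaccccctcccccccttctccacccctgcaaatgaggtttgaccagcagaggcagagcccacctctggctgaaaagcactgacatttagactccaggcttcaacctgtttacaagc
Fgfr2: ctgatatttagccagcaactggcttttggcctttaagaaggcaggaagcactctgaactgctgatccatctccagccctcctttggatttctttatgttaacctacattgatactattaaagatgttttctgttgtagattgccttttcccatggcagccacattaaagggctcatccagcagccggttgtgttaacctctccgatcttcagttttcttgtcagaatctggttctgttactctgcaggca
Pdgfra: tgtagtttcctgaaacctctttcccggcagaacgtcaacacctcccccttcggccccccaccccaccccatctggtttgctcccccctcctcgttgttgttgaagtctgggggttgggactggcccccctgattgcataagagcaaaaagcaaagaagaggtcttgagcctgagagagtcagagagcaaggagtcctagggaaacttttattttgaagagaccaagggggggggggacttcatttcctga
The Fgf7 window held 1 CCAAT box, at position -53, and the Fgf10 window held 1 GC box on the other strand, at position -199. The Fgfr2 and Pdgfra windows held none of the 5 motifs, and no motif was shared by the 4 genes. Of 32851 RefSeq windows of the same length, 33.8% held a CCAAT box, 32.7% a GC box, 12.4% a TATA box, 6.75% an AP-1 motif and 12.6% a TEAD motif. The GC content was 43.6% for Fgf7, 61.2% for Fgf10, 44% for Fgfr2 and 54.4% for Pdgfra, beside a median of 52.4% over all windows. These matches are a description of letters and were not tested against the expression values.

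Among the receptors, Pdgfra, the PDGF alpha receptor, was highest in diffMMS with both of its probe sets. For 1421917_at, the log2 values were 9.81, 10.01 and 10.12 in diffMMS, 9.01, 8.99 and 8.82 in MMS and 8.68, 8.76 and 8.38 in TMS. For 1421916_at they were 9.56, 9.82 and 9.84 in diffMMS, 8.48, 8.60 and 8.53 in MMS and 8.98, 8.87 and 8.61 in TMS. Each diffMMS array lay above all 6 sphere arrays with both probe sets. The difference of diffMMS from MMS was 1.04 with a standard error of 0.11 (n = 3 arrays a group, limma adjusted p = 2.47e-05) for 1421917_at and 1.20 with a standard error of 0.11 (adjusted p = 4.44e-06) for 1421916_at. The differences of TMS from diffMMS were -1.38 and -0.92 by the 2 probe sets (adjusted p = 2.73e-06 and 5.01e-05).

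The order of TMS and MMS for Pdgfra depended on the probe set. With 1421917_at all 3 TMS arrays lay below all 3 MMS arrays, a difference of -0.34 (adjusted p = 0.0658). With 1421916_at all 3 TMS arrays lay above them, a difference of 0.28 (adjusted p = 0.101). Neither passed the threshold, and no direction is given for Pdgfra between the 2 kinds of sphere. The calls against diffMMS held in all 19 alternative settings for both probe sets.

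Pdgfrb, the PDGF beta receptor, was lowest in TMS. For 1436970_a_at, the values were 9.39, 9.34 and 8.90 in TMS, 9.92, 10.07 and 10.46 in MMS and 9.80, 10.01 and 10.10 in diffMMS. All 3 TMS arrays lay below the other 6, whereas MMS and diffMMS overlapped. TMS differed from MMS by -0.94 (standard error 0.15, adjusted p = 0.00175), which is 0.521 of the MMS level, and from diffMMS by -0.76 (adjusted p = 0.00333). The difference of diffMMS from MMS was -0.18, with a 95% interval from -0.51 to 0.15, and did not pass (adjusted p = 0.387). It passed as lower with the values as deposited and with arrays centred on the median (-0.48 at its lowest).

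The second Pdgfrb probe set, 1417148_at, gave smaller differences of the same sign for TMS. Its values were 9.28, 8.77 and 8.55 in TMS, 9.21, 9.44 and 9.34 in MMS and 9.29, 9.31 and 9.54 in diffMMS. Array 1099A overlapped MMS, and the difference of TMS from MMS was -0.46 (adjusted p = 0.0659). The difference from diffMMS was -0.52 (adjusted p = 0.0298), a call lost in 6 of 19 alternative settings, among them leaving out array 1100A, 1101A, 862A or 863A.

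Fgfr1, the FGF receptor of most mesenchymal cells, was highest in TMS, by a small margin. For 1425911_a_at, the values were 9.78, 9.88 and 9.99 in TMS, 9.42, 9.68 and 9.48 in diffMMS and 9.68, 9.48 and 9.01 in MMS. All TMS arrays lay above the other 6, and MMS and diffMMS overlapped. The difference of TMS from MMS was 0.49 (standard error 0.14, adjusted p = 0.0390). The neighbours TMS and diffMMS differed by 0.35, which did not pass (adjusted p = 0.0951). The call against MMS was lost in 11 of 19 alternative settings, including the values as deposited and arrays centred on the median, and without array 1099A, 1100A, 1101A, 859A, 860A or 863A, with adjusted p up to 0.290.

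The other Fgfr1 probe set, 1424050_s_at, placed TMS above diffMMS by 0.29 (adjusted p = 0.0377) and above MMS by 0.16 (adjusted p = 0.295). Its values were 9.04, 9.11 and 9.27 in TMS, 9.17, 8.92 and 8.85 in MMS and 8.86, 8.84 and 8.84 in diffMMS. The 2 Fgfr1 probe sets thus differed in which group TMS exceeded past the threshold. The call against diffMMS was lost in 7 of 19 settings, including without any 1 diffMMS array and without array 1100A, 1101A or 859A.

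Fgfr2, whose epithelial splice form is the receptor of FGF7 and FGF10, was higher in diffMMS with 1 of its 2 probe sets. For 1433489_s_at, the values were 7.95, 7.97 and 7.97 in diffMMS, 7.80, 7.78 and 7.51 in TMS and 7.67, 7.51 and 7.47 in MMS. The diffMMS arrays lay above the other 6, and TMS and MMS overlapped. The difference of diffMMS from MMS was 0.41 (standard error 0.09, adjusted p = 0.00434), a 1.33-fold change that passed in all 19 alternative settings. The difference of TMS from diffMMS was -0.27 (adjusted p = 0.0485), a call lost in 13 of 19 settings, among them leaving out any 1 of the MMS and diffMMS arrays or array 1100A or 1101A.

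The second Fgfr2 probe set, 1420847_a_at, differed by 0.04 between diffMMS and MMS, with a 95% interval from -0.13 to 0.20, which does not reach the difference of the first probe set. Its values ran from 6.42 to 6.63 over the 9 arrays, and its largest difference in any comparison was -0.08, for TMS against diffMMS. The endings a and s of these identifiers mark probe sets that can match several transcripts, and probe sequences were not used here, so that the epithelial and mesenchymal splice forms could not be told apart.

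Fgfr3, an FGF receptor best known for limiting the growth of cartilage, did not pass the test in any comparison. Values of 1425796_a_at ran from 6.58 to 6.61 in TMS, from 6.41 to 6.49 in MMS and from 6.49 to 6.64 in diffMMS. The widest difference was 0.15 for TMS over MMS, with a 95% interval from -0.01 to 0.30. The second probe set, 1421841_at, was dimmer, with differences from -0.07 to -0.02.

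**Figure D1:**
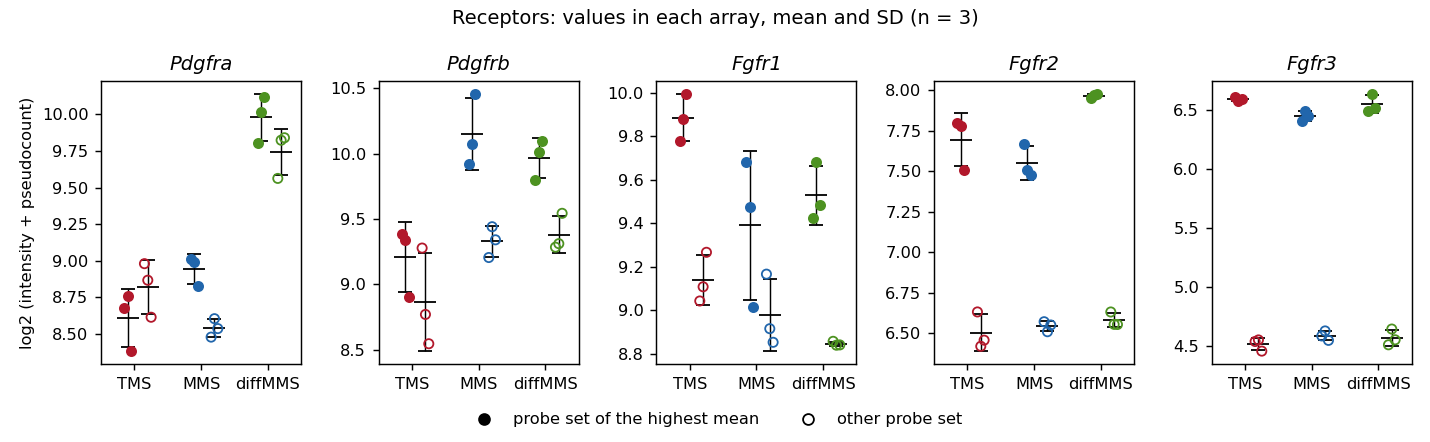
Log2 values (intensity plus pseudocount, vertical axis, scaled for each gene) of the 5 receptors in TMS, MMS and diffMMS, 1 point per array, with the mean and SD of 3 arrays as bars. Filled points are the probe set of the highest mean and open points the other probe set: diffMMS lie above all other arrays for both Pdgfra probe sets, and TMS lie below them for the filled Pdgfrb points.

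Among the ligands, Fgf7, also called keratinocyte growth factor, showed the widest difference of the 10 genes. Its values were 8.55, 8.62 and 8.74 in diffMMS, 6.87, 6.77 and 6.84 in MMS and 7.01, 7.06 and 6.76 in TMS. The groups of spheres overlapped, and all diffMMS arrays lay above both. The difference of diffMMS from MMS was 1.81 (standard error 0.09, adjusted p = 5.00e-08) and that of TMS from diffMMS -1.69 (adjusted p = 8.37e-08). TMS and MMS differed by 0.12, with a 95% interval from -0.08 to 0.32 (adjusted p = 0.460). All 19 alternative settings kept both calls against diffMMS, with values from 1.55 to 1.89 against MMS.

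Fgf10, the ligand needed for the mammary bud to form, changed in the same direction by less. Its values were 5.72, 6.0 and 5.91 in diffMMS, 5.45, 5.51 and 5.39 in MMS and 5.44, 5.35 and 5.25 in TMS. The diffMMS arrays lay above the other 6, and the 2 kinds of sphere overlapped. The difference of diffMMS from MMS was 0.43 (standard error 0.08, adjusted p = 0.00177) and that of TMS from diffMMS -0.53 (adjusted p = 4.84e-04). Fgf10 was a dim probe set, at the 24.4th percentile of mean brightness, and it left the fit in the setting that dropped the dimmest 30% of probe sets. In each of the 18 settings that could be fitted both calls were kept.

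Pdgfa, the ligand of the alpha receptor, was the member called higher in TMS than in diffMMS. For 1418711_at, the values were 6.84, 7.29 and 7.37 in TMS, 6.86, 6.67 and 6.88 in MMS and 6.87, 6.68 and 6.82 in diffMMS. Array 1099A lay within the range of the other groups, and arrays 1100A and 1101A above it. The difference of TMS from diffMMS was 0.37 (standard error 0.13, adjusted p = 0.04996), and that from MMS was 0.36 (adjusted p = 0.0785). The call was lost in 13 of 19 settings, among them leaving out any 1 array other than 1099A.

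For the second Pdgfa probe set, 1449187_at, the values were 6.10, 6.57 and 6.97 in TMS, 6.20, 6.32 and 6.22 in MMS and 5.72, 6.01 and 5.86 in diffMMS. TMS lay above diffMMS in every array, by 0.68 (standard error 0.17, adjusted p = 0.0113), which was lost only at the stricter threshold of 0.01 among the 19 settings. The difference of diffMMS from MMS was -0.39 and did not pass (adjusted p = 0.0971). Both probe sets therefore placed TMS above diffMMS, and the one with the higher mean did so near the threshold.

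Fgf1, or acidic FGF, and Fgf2, or basic FGF, did not pass the test in any comparison. Values of Fgf1 by 1450869_at ran from 5.83 to 6.23 in TMS and from 5.80 to 5.97 in MMS, and those of diffMMS lay above all of MMS, up to 6.21. The differences from MMS were 0.21 in diffMMS and 0.21 in TMS, with adjusted p of 0.148 and 0.223, and its second probe set, 1423136_at, differed by 0.02 at most. Fgf2 values ran from 4.33 to 4.47 in TMS, from 4.28 to 4.32 in MMS and from 4.35 to 4.41 in diffMMS. Fgf2 differed by 0.09 between diffMMS and MMS and by 0.10 between TMS and MMS, with adjusted p of 0.129 and 0.136. The Fgf2 probe set stood at the 5.05th percentile of brightness.

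**Figure D2:**
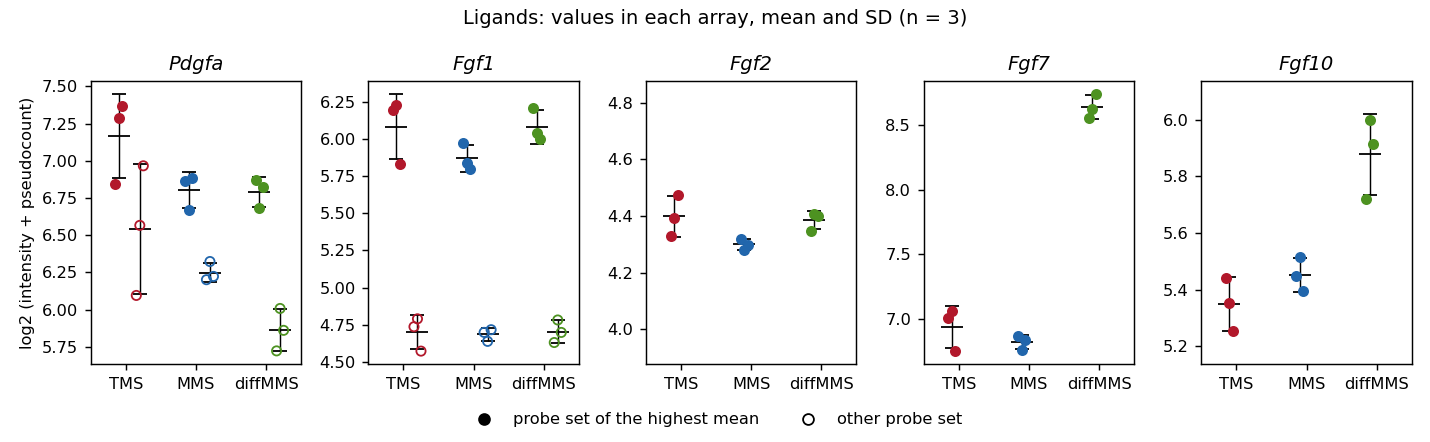
Log2 values (intensity plus pseudocount, vertical axis, scaled for each gene) of the 5 ligands in TMS, MMS and diffMMS, 1 point per array, with the mean and SD of 3 arrays as bars. Filled points are the probe set of the highest mean and open points the other probe set: Fgf7 and Fgf10 are highest in each diffMMS array, and the TMS points of Pdgfa are the most widely spread.

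The arrays came without detection calls, so that brightness was set beside 14 genes of other organs and Y-linked genes, which these cultures of mammary cells would not be thought to use. These reached the 66.3rd percentile of mean brightness, with a median at 18.8. Pdgfrb (96.9), Fgfr1 (96.4), Pdgfra (94.5), Fgfr2 (77.8) and Fgf7 (72.3) stood above all of them, although Fgf7 did so only in diffMMS (90.1st percentile), and stood at 60.1 in TMS and 57.1 in MMS. Pdgfa (59.5), Fgfr3 (48.7), Fgf1 (34.8), Fgf10 (24.4) and Fgf2 (5.05) lay within their range by the mean of all arrays. In TMS alone, Pdgfa stood at 65.6, just above the brightest of the 14 genes there at 65.5, but its second probe set stood at 49.2. For Pdgfa in any group, Fgfr3, Fgf1, Fgf10 and Fgf2, and for Fgf7 in TMS and MMS, brightness did not settle whether the transcript was present. The second Fgfr2 probe set, at 48.8 by the mean of all arrays, also lay within the range. In diffMMS the same 14 genes had a median at the 18.4th percentile and reached the 69.9th. Brightness also depends on the probes and does not order the transcripts of different genes by amount.

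**Figure D3:**
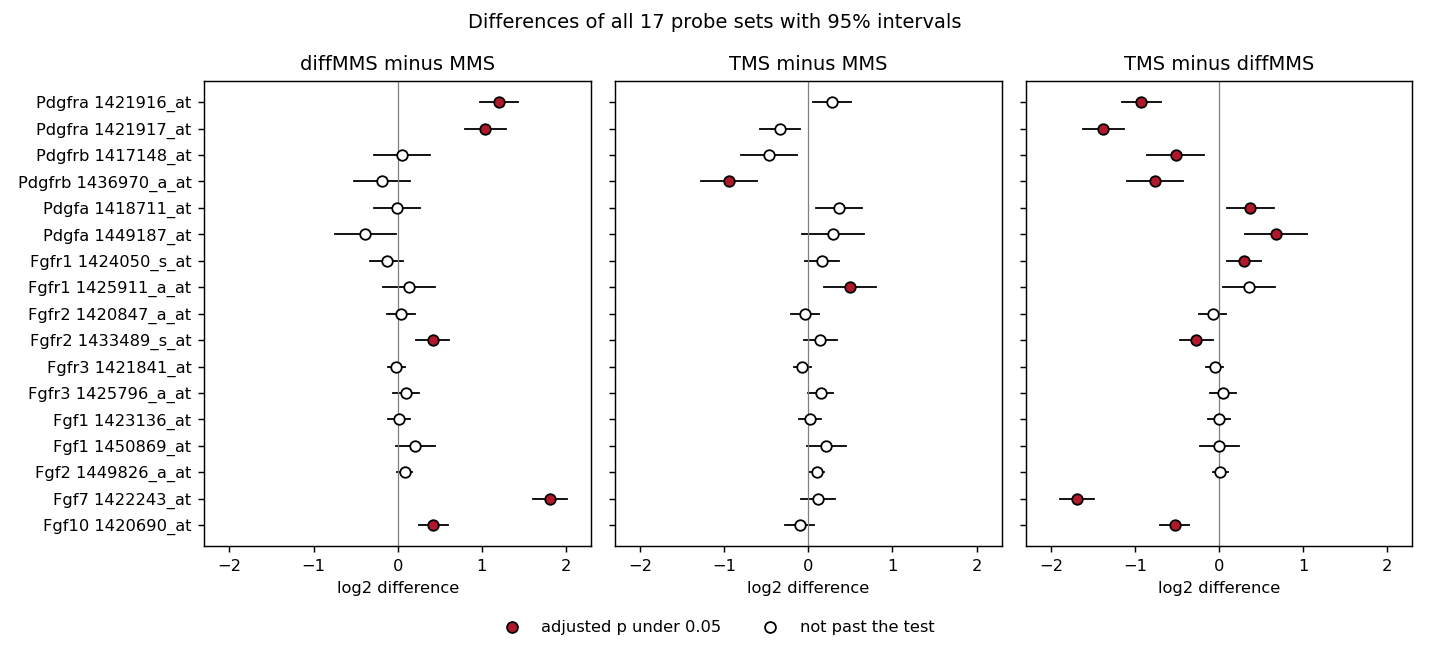
Log2 differences (horizontal axis) of the 17 probe sets in the 3 comparisons, with 95% intervals from limma as bars, and filled points for an adjusted p under 0.05. Fgf7 and both Pdgfra probe sets lie above 1 in diffMMS minus MMS, and the 2 Pdgfra probe sets lie on opposite sides of 0 in TMS minus MMS.

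The cell type of the cultures was checked because these genes are used unequally by stroma and epithelium. The 16 luminal epithelial markers had their median at the 60.2nd percentile of brightness in TMS, the 31.2nd in MMS and the 31.3rd in diffMMS, and the 10 basal markers at the 50.4th, 40.7th and 41.8th in the same order. The luminal genes were uneven. Epcam stood at the 97.0th percentile in TMS, the 42.7th in MMS and the 36.7th in diffMMS, Krt8 at the 98.4th, 68.7th and 67.6th, and Krt19 at the 31.0th, 29.5th and 39.2nd. The 14 measured fibroblast markers had their median at the 99.5th percentile in TMS, the 99.6th in MMS and the 99.1st in diffMMS. The study describes the mammospheres as mammary epithelial. In TMS, MMS and diffMMS alike the luminal and basal medians lay within the range of the 14 genes of other organs and Y-linked genes, and the fibroblast median lay above it. That range reached the 65.5th percentile in TMS, where Epcam and Krt8 stood above it. The median of the 14 genes was 18.1 in TMS, 20.8 in MMS and 18.4 in diffMMS. The luminal and basal medians of each group lay above these. A list median within so wide a range does not settle whether epithelial transcripts were present. Percentiles of different probe sets do not compare amounts of RNA, so that no share of epithelial or fibroblast cells is given.

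Of all genes, 18.0% were called higher and 16.1% lower in diffMMS than in MMS. Beside the rise of Pdgfra and the stromal ligands in diffMMS, 6 of 14 fibroblast markers were higher than in MMS and 5 were lower. Thy1 (1.42) and Mfap5 (1.40) were up and Lum (-1.82) and Fap (-1.04) down on the log2 scale. The summed level of the fibroblast markers (intensity plus pseudocount) ran from 54821 to 55746 in diffMMS and from 48630 to 50483 in MMS. Of 12 pericyte and smooth muscle markers, 4 were higher and 1 lower, led by the contractile genes Tagln (3.73) and Acta2 (2.60), and the sum ran from 4679 to 5977 against 1870 to 1920. Of 7 adipocyte markers, 2 were higher and 0 lower, with Lpl (2.51) first, and the sum ran from 4252 to 4855 in diffMMS against 879 to 1089 in MMS. The median difference was 0.005 for the fibroblast list, 0.055 for the pericyte and smooth muscle list and 0.007 for the adipocyte list, beside 0.046 for all genes. A sum follows its brightest genes, and these sums do not show a rise of any of these lists as a whole. Of the luminal markers 2 of 16 were higher and 0 lower, of the basal markers 4 of 10 and 1, of the endothelial markers 1 of 10 and 1, and of the macrophage markers 4 of 12 and 1. The luminal and endothelial shares were no larger than those of all genes. No marker was at 0 in the deposited table. Their part in the member differences was not tested.

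Beside the lower Pdgfrb of TMS, 10 of 16 luminal markers were higher than in MMS and 0 were lower, with Krt18 up by 4.27 and Epcam by 3.56. Of all genes, 6.21% were called higher and 7.11% lower in this comparison. The summed luminal level was 5883, 5685 and 8834 in arrays 1099A, 1100A and 1101A, against 1120 to 1215 in MMS. Of the fibroblast markers, 1 was higher and 3 lower in TMS than in MMS, and their sum ran from 43064 to 48592. Of 10 endothelial markers, 0 were higher and 4 lower, with Pecam1 (-0.61) and Emcn (-0.58) first, and of 12 macrophage markers 5 were higher and 0 lower, led by Lyz2 (2.29). Of the 12 pericyte and smooth muscle markers 1 was higher and 1 lower, shares near those of all genes. Of 10 basal markers 1 was higher and 0 lower, and of the adipocyte markers 0 were higher and 2 lower. Their part in the member differences was not tested.

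The wider PDGF and FGF pathways were read from 7 lists, 1 probe set to a gene, chosen as for the members. The counts of each list stand beside the shares of all genes called. These were 6.21% higher and 7.11% lower in TMS against MMS, and 12.3% and 12.7% in TMS against diffMMS. Of 7 other PDGF family and binding genes, 3 were higher and 2 lower in diffMMS than in MMS, beside 18.0% and 16.1% of all genes. The higher genes were Pdgfc (1.01, adjusted p = 7.49e-07), a ligand of the alpha receptor, Sparc (0.95), a matrix protein that binds PDGF, and Pdgfd (0.69), a ligand of the beta receptor. Pdgfd was dim, at the 5.40th percentile in MMS and the 15.8th in diffMMS, so that its presence was not settled. The higher count became 2 with dim probe sets left out. Plat (-1.21), the tissue plasminogen activator, which can cleave PDGF-C to its active form, and Lrp1 (-0.26), a co-receptor of the beta receptor, were lower. The lower count became 1 on leaving out array 1100A, 862A, 863A or any 1 MMS array. In TMS against MMS, 0 were higher and 0 lower. In TMS against diffMMS, Sparc, Pdgfc and Pdgfd were lower and Plat was higher, and the lower count became 2 with dim probe sets left out.

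Of 18 other FGFs, 4 were higher and 0 lower in diffMMS than in MMS, namely Fgf18 (0.53), Fgf21 (0.53), Fgf9 (0.33) and Fgf22 (0.26). That share lay near the 18.0% of all genes, and the count was 8 with the values as deposited. TMS and MMS differed in 0 of them, and TMS were lower than diffMMS in Fgf18 and Fgf9. Of 7 genes listed as other FGF receptors, co-receptors, carriers and receptor partners, Fgfrl1 (0.54), a receptor-like protein that lacks the kinase, and Fgfbp1 (0.25), a carrier that releases FGFs from matrix, were higher in diffMMS than in MMS, and Fgfr1op2 (-0.56) was lower. Fgfr1op2 is named for its fusion with FGFR1 and is itself neither receptor, co-receptor nor carrier. The higher count was 1 with dim probe sets left out and 4 without array 863A. TMS and MMS differed in 0 of these.

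Feedback and response genes of the pathway were mostly lower in diffMMS than in MMS. Of 12 measured, 7 were lower and 1 higher, beside 16.1% and 18.0% of all genes, and their median difference was -0.66 against 0.05 for all genes. Dusp6, the phosphatase that inactivates ERK, differed by -3.42 (standard error 0.19, adjusted p = 1.15e-07). Its values were 6.02, 5.94 and 6.21 in diffMMS, 9.51, 9.58 and 9.35 in MMS and 9.57, 9.53 and 8.67 in TMS, with diffMMS below all others. Etv4, an ETS factor induced by FGF, differed by -1.42 (adjusted p = 5.86e-06), and Spsb1 (0.53) was the 1 higher gene. The others that were lower were Spred1, Egr1, Etv5, Spred2 and Spry4, with differences from -1.28 to -0.62. Against diffMMS, TMS were higher in 9 and lower in 1, with Dusp6 (3.20) and Ier3 (1.80) first and a median of 1.06. Between TMS and MMS only Ier3 (1.84) and Etv5 (0.46) passed, both higher in TMS, and 1 gene passed with centred arrays or without any 1 MMS array or array 863A. The 1 gene lower in TMS than in diffMMS became 0 without array 1099A or 1100A, with centred arrays and on the deposited scale. These genes also answer to other growth factors, and in diffMMS medium, attachment and differentiation cannot be told apart.

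Of 17 adaptors and signal enzymes, 8 were higher and 2 lower in diffMMS than in MMS, beside 18.0% and 16.1% of all genes, so that the lower share was no larger than that of all genes. Grb14 (2.02), an adaptor that inhibits receptor kinases, and Pik3r1 (0.97), the regulatory subunit of phosphatidylinositol 3-kinase, led the higher genes, and Nck1 (-0.62) and Sos2 (-0.29) were the lower ones. The higher count fell to 5 without array 859A, and the lower count ran from 1 (without array 859A, 860A, 861A or 863A) to 4 (centred arrays). In TMS against MMS, 5 were higher and 1 lower, with Pik3r1 (1.35) and Grb14 (0.44) first and Grb10 (-0.58) the lower one, a gene that was higher in diffMMS than in MMS by 0.94. The higher count fell to 3 without array 859A or 860A, and the lower count ran from 0 (only the 2 groups compared, or without any 1 MMS array) to 3 (centred arrays). In TMS against diffMMS, 2 were higher and 2 lower, with Grb14 (-1.58) and Grb10 (-1.52) the lower ones. The higher count was 1 with only the 2 groups compared and without array 1099A, 860A or 861A, and the lower count was 1 with dim probe sets left out.

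Heparan sulfate, the co-receptor of the paracrine FGFs, was represented by its core proteins and by the enzymes that build and trim its chains. All 10 core proteins measured differed between diffMMS and MMS, 7 higher and 3 lower, beside 18.0% and 16.1% of all genes. The higher count fell to 5 with arrays centred on the median, and the lower count to 2 without array 859A, 860A or 862A. The syndecans split: the difference was 2.21 for Sdc4 and -2.08 for Sdc1, the syndecan typical of epithelium. Of the glypicans, Gpc4 (1.52) was higher and Gpc1 (-0.54) lower. In TMS against MMS only Sdc4 (2.95) and Agrn (0.46) passed, both higher, beside 6.21% of all genes higher and 7.11% lower. In TMS against diffMMS 3 were higher and 4 lower, with Sdc1 (2.05) and Gpc4 (-1.54) at the ends. Of all genes, 12.3% were higher and 12.7% lower there.

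Of 12 enzymes of heparan sulfate synthesis and trimming, 3 were higher in diffMMS than in MMS, led by Hs6st2 (1.75), a 6-O-sulfotransferase, and Sulf2 (1.11), a sulfatase that removes 6-O-sulfate. Hs2st1 (-0.41) and Ndst2 (-0.34) were lower. Both shares lay near the 18.0% and 16.1% of all genes. In TMS against MMS, Sulf2 (0.56) and Hs3st1 (0.45) were higher and 0 were lower. In TMS against diffMMS, 3 were higher and 4 lower, with Hs6st2 (-1.57) and Glce (-0.72) the lowest.

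**Figure D4:**
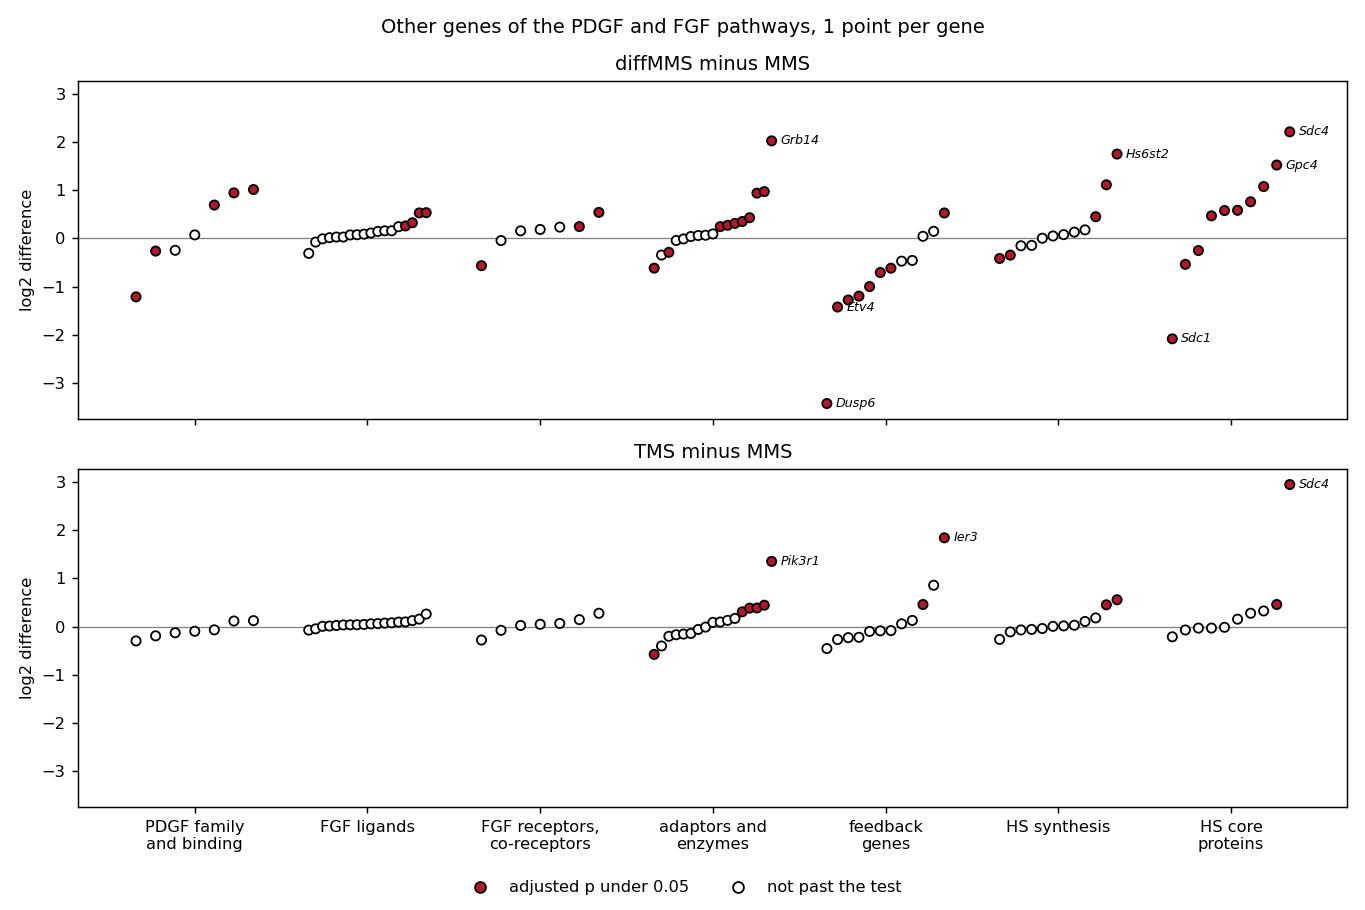
Log2 differences (vertical axis) of other genes of the PDGF and FGF pathways in diffMMS minus MMS (top) and TMS minus MMS (bottom), 1 point per gene within 7 lists (HS, heparan sulfate), sorted within each list, with filled points for an adjusted p under 0.05. Feedback genes lie mostly below 0 in the upper panel, with Dusp6 at -3.42, whereas in the lower panel few points of any list are filled.

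The transcripts whose pattern over the 9 arrays was most like that of each receptor are given as a description, by Pearson's r with its brightest probe set. For Pdgfra they were Marcks (0.993), Pmp22 (0.990) and Plac8 (0.989), and 203 probe sets of other genes had r above 0.95. For Fgfr2 they were Wipi1 (0.987), Fgfbp1 (0.984) and Trim16 (0.984). For Pdgfrb they were Zic1 (0.955), Rsrp1 (0.952) and Cbx6 (0.947), for Fgfr1 Dusp14 (0.954), Rab10 (0.943) and Tapbp (0.927), and for Fgfr3 Trp53inp1 (0.936), Numb (0.929) and Ptp4a3 (0.916). The 9 points fall into 3 groups of arrays, so that they are not independent points, and no p is given.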

How the data were processed

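RNA of 3 tumorsphere, 3 mammosphere and 3 differentiated mammosphere cultures was measured on Affymetrix MOE430A arrays. The authors deposited 1 table of intensity values on a linear scale for 22690 probe sets, already summarised and scaled in a way not given in the sources used here, although GeneSpring is named for the analysis. Array medians ran from 84.0 to 88.6. The 64 control probe sets were left out. Of the others, 20380 carry 1 gene symbol, 691 several and 1555 none in the platform annotation, and 20351 matched RefSeq gene identifiers, with 0 symbols changed.

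Here 10% of the median (8.67) was added, log2 taken and arrays quantile normalized, since their quartiles differed by up to 0.134, above the limit of 0.1. Group means were fitted with limma 3.58.1 in R 4.3.3 (lmFit, eBayes with intensity trend) over all 9 arrays, leaving 6 residual degrees of freedom, and two-sided p values were adjusted by Benjamini-Hochberg over 22626 probe sets. The fit was also run on simulated data with independent normal noise and shifts set in TMS only. That run could not show effects of array processing or normalization. Replicate numbers were given in accession order and pair nothing. Precision is limited by there being 3 arrays of each kind, and whether mammosphere preparations came from separate mice is not stated, so that p values measure the spread between these preparations.

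All members were named, and from each other list up to 2 largest rises and 2 largest falls of a comparison. Pdgfd, Fgf9, Fgf22, Etv5, Spred1, Egr1, Spred2 and Spry4 and the epithelial markers given by percentile were named after their values were seen. The members and lists were chosen with earlier results of these data known. Alternatives changed the scaling, pseudocount, filter on dim probe sets, variance model, array weights, groups fitted, probe set per gene and threshold, or left out 1 array.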

Additional observations from a re-analysis of the deposited data

How the results depend on the processing

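For single probe sets of the 10 genes, 879 of 957 alternative values over 51 differences kept their side of the threshold, 51 fell short of it and 27 newly passed. A change of sign was counted only where a difference passed, and 0 of these reversed. Differences that did not pass could change sign and were counted as kept. Pdgfrb 1417148_at in diffMMS against MMS, for one, was 0.05 and reached -0.21. The calls of Fgf7, Fgf10, Pdgfra and Fgfr2 in diffMMS against MMS and of Pdgfrb (1436970_a_at) in TMS were kept in every setting that could be fitted. The causes of the changes below were not tested. In diffMMS against MMS, 1 member was lower with the values as deposited and 1 with arrays centred on the median, in place of 0. In TMS against MMS, the 1 higher member became 0 with centred arrays, without the intensity trend, with only the 2 groups compared and at an adjusted p of 0.01, and 3 with array weights, and leaving out 1 array gave 0 to 1. A count of 1 did not always mean Fgfr1. It was Fgf2 with the values as deposited, Pdgfa without array 1099A and Fgf1 without array 1101A. The 1 lower member became 2 with the values as deposited and with centred arrays, and leaving out 1 array gave 1 to 2 (2 without differentiated array 861A). In TMS against diffMMS, the 1 higher member became 0 with centred arrays, with a pseudocount of 50% of the median, without the trend and at 0.01, and 2 when any probe set of a gene could pass, and leaving out 1 array gave 0 to 1. With only the 2 groups compared and without array 860A, that 1 member was Fgfr1 in place of Pdgfa. With centred arrays, 38.9% of the genes called in diffMMS against MMS were higher, against 52.8%, and 32.1% in TMS against MMS, against 46.6%. For the 7 pathway lists, alternatives added after seeing the data left 687 of 756 counts within 1.5 times, and the 7 lower feedback genes ran from 7 to 9. No paired analysis was possible because neither labels nor columns carry replicate numbers. Dim probe sets were limited by signal over background: Fgf2, Fgf10 and the dimmer Fgf1 and Fgfr3 probe sets gave no value after the filter.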
